A study of Mus musculus with 18 samples.

Results

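The transcription factors that drive the enteroendocrine fate, *Atoh1*, *Neurog3*, *Neurod1*, *Insm1*, *Nkx2-2*, *Rfx6*, *Pax4*, *Pax6* and *Isl1*, were followed through all RNA-seq libraries of mouse colon epithelium. They were found by symbol, and all 9 had 1 row among the 52636 genes of both tables of values. RNA was measured in 18 libraries, 6 of cells sorted by flow cytometry and 12 of isolated crypts with 1 mouse each. The sorted cells were Epcam+ve/GFP-ve cells of a WT mouse (2 samples of 1 mouse, called Epcam+ve cells here), Epcam+ve/GFP+ve cells of heterozygous Olfr78-GFP mice (HE, 2 pools of 2 mice) and Epcam+ve/GFP+ve cells of homozygous mice (KO, 2 pools of 2 mice). In the Olfr78-GFP line a GFP-containing reporter cassette replaces the coding exon of *Olfr78*, a receptor for short-chain fatty acids, so that HE cells keep 1 intact allele and KO cells none. Both kinds of GFP+ve cells therefore carry the reporter, which the WT mouse lacks. The crypts came from WT (n = 2) and KO (n = 5) mice of that line and from mice of the line Vil1Cre/Olfr78fx. In the latter, the villin promoter drives Cre in intestinal epithelial cells to delete *Olfr78* there. By their titles these were controls (eControl, n = 3) and epithelial knockouts (eKO, n = 2). The paper's controls of this line had floxed *Olfr78* without Cre, or Cre with WT *Olfr78*. The genotype labels of this line read HE/WT or WT/HO for eControl and HE/HO or WT/HO for eKO mice. None of the groups received a treatment, and the labels give no age.

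Enteroendocrine cells (EECs) are the rare hormone-producing cells of the gut epithelium. They arise from crypt progenitors in steps that are marked by transcription factors: *Atoh1* opens the secretory lineage shared with goblet and other secretory cells, *Neurog3* is switched on briefly in endocrine progenitors and commits them, and *Neurod1*, *Insm1*, *Nkx2-2*, *Rfx6*, *Pax4*, *Pax6* and *Isl1* act downstream of it in maturation and in the choice of subtype. In the colon, the main subtypes are enterochromaffin (EC) cells, which make serotonin through *Tph1*, and L cells, which make *Gcg*, *Pyy* and *Insl5*.

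To show sequence next to annotated starts of these genes, the bases directly before the transcription start given by RefSeq (GRCm38.p6) were taken. In RefSeq, 7 of the 9 factors had an entry (*Insm1* and *Pax4* had none, and *Pax6* had 2 starts). Shown are 250 bases each of the 3 factors called higher in HE pools that had an entry (*Neurod1*, *Nkx2-2*, *Rfx6*), and of the 2 factors that act first (*Atoh1*, *Neurog3*), as the members whose levels are contrasted in the results. Capitals mark E-boxes (CANNTG, which reads the same on both strands), the motif bound by basic helix-loop-helix proteins such as ATOH1, NEUROG3 and NEUROD1.
Neurod1, chr2:79456637-79456886, minus strand: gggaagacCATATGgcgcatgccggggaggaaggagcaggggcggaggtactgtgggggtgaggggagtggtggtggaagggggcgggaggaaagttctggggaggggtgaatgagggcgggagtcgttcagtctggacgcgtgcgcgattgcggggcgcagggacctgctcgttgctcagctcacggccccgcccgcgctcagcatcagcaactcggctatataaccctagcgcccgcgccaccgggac
Nkx2-2, chr2:147186403-147186652, minus strand: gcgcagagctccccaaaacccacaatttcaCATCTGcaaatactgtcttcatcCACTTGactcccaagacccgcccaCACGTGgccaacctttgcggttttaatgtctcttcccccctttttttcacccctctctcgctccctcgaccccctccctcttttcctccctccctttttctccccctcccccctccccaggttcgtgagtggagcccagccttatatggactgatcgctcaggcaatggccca
Rfx6, chr10:51685268-51685517, plus strand: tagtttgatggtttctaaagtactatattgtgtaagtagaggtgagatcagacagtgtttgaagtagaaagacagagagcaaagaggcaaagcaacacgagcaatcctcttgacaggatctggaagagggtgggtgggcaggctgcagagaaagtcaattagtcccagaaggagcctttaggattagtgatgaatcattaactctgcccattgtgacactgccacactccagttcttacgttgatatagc
Atoh1, chr6:64728875-64729124, plus strand: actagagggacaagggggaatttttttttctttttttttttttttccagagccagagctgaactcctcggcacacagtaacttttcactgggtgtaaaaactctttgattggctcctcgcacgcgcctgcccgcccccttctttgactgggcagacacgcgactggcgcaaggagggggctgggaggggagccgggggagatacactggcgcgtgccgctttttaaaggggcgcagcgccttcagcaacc
Neurog3, chr10:62132840-62133089, plus strand: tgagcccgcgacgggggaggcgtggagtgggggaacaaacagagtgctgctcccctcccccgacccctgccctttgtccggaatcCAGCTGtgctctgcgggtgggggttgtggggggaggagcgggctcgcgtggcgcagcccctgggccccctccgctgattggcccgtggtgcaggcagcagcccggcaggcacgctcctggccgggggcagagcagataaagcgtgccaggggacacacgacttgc
The *Nkx2-2* window held 3 E-boxes, those of *Neurod1* and *Neurog3* held 1 each, and those of *Rfx6* and *Atoh1* held 0. Of 32851 such windows in the RefSeq table, 66.2% held at least 1 E-box. The E-box CAGATG on either strand occurred in *Nkx2-2* alone among the windows of the 7 factors and in 14.4% of all windows, and the E-box CAGCTG in those of *Isl1* and *Neurog3* and in 13% of all windows. The motif GTTGCC, on either strand, occurred in 1 of the 2 *Pax6* windows and in 10.4% of all windows, and GTGGGAA in none of the factors' windows and in 5.42% of all windows. These matches describe letters within 250 bases and nothing about occupancy. GENCODE M21, used for the gene positions below, places some starts differently. By it, the *Rfx6* and *Nkx2-2* windows lie inside the genes (chr10:51677756-51730432 and chr2:147177546-147194243), downstream of their outermost start. The *Neurod1* window lies partly inside its gene.

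Values are reads per gene scaled to 20000000 per library (CP20M), from which whole reads could be recovered. The sorted libraries held 532704 to 2237486 reads on genes and the crypt libraries 6175306 to 10995306. A single read amounted to 37.5 CP20M in KO pool 1, to 8.94 to 13.3 CP20M in the other sorted libraries and to 1.82 to 3.24 CP20M in crypts. *Olfr78* itself, of which the deletion removes only the coding exon, stood at 4822 and 4401 CP20M in HE pools, 977 and 837 in KO pools, 88 and 111 in WT crypts, 7 to 42 in KO crypts, 61 to 124 in eControl crypts and 21 and 73 in eKO crypts. *Olfr560* overlaps *Olfr78* on the same strand and reached at most 1117 CP20M in sorted cells and 32 in crypts. Whether it has a part in the *Olfr78* values was not tested. The library titled eKO mouse 2, with *Olfr78* at 73, lay within the range of the eControl libraries. It carries the same genotype label as eControl mouse 2. Crypt results that use both lines are therefore also given without it. The Epcam+ve samples are labelled enteroendocrine, yet *Chga*, the chromogranin that marks EECs, was 3504 and 3380 CP20M in them against 242823 and 304540 in HE pools. KO pool 2 stood apart in its goblet genes. The summed level of 6 goblet cell markers (*Muc2*, *Tff3*, *Clca1*, *Fcgbp*, *Zg16*, *Spink4*), all above 0 in every sorted library, was 317319 CP20M in KO pool 2, 58497 in KO pool 1, 140555 and 60888 in HE pools 1 and 2, and 280136 to 331133 in the Epcam+ve samples. Results on KO pools are therefore given with and without this pool.

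In HE GFP+ve cells, 4 factors of endocrine maturation were called far higher than in Epcam+ve cells, whereas the values of *Atoh1* were lower without passing the threshold. This comparison asks which of the factors mark the cells that express *Olfr78*. Of the 9 factors, 7 reached 40 CP20M (2 CPM) in at least 2 of the 4 libraries and were tested with limma on log2(CP20M + 10). The call required a Benjamini-Hochberg adjusted p under 0.001 and a log2 fold change beyond 2. *Neurod1*, *Insm1*, *Nkx2-2* and *Rfx6* were called higher and no factor lower, while 1.58% of the 16355 genes tested were called higher and 1.75% in either direction. Without HE pool 1 the latter share was 7.91%, with 6 factors called, and without HE pool 2 it was 3.48%, with 5. With 1 HE pool left, the spread in these fits is that between the 2 Epcam+ve samples of 1 mouse, which is technical. In bulk RNA, fewer cells of a type and less RNA per cell cannot be told apart. Over all 9 factors, without a filter, the median log2 fold change was 4.91, beside -0.02 over all genes above 0.

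**Figure D1:**
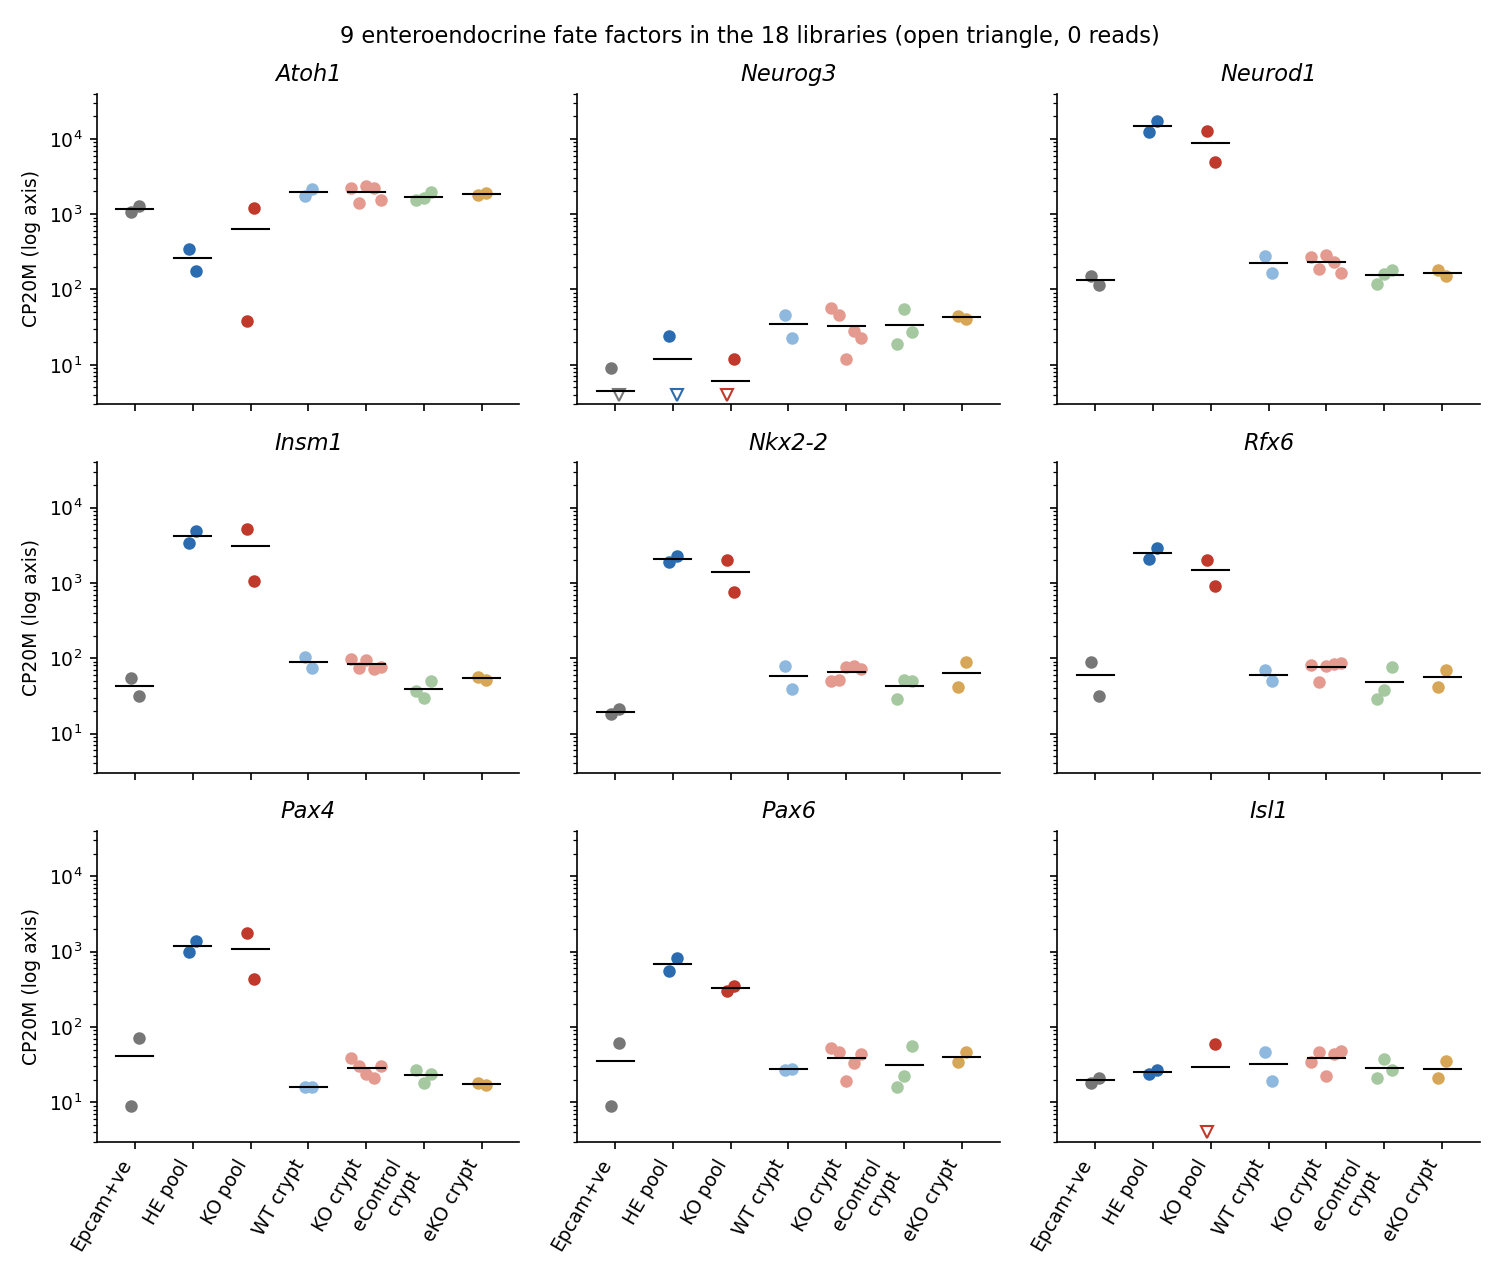
CP20M (log axis) of each of the 9 factors in the 18 libraries, by group; points are libraries, black lines group means, and open triangles libraries with 0 reads. The panels of 6 factors (*Neurod1*, *Insm1*, *Nkx2-2*, *Rfx6*, *Pax4*, *Pax6*) have HE and KO pools above all Epcam+ve and crypt libraries, and that of *Atoh1* has HE pools (174 to 346) below the Epcam+ve samples (1064 to 1264).

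Among the factors that act first, *Atoh1* (chr6:64729125-64731245, plus strand; GENCODE M21, GRCm38) was 1064 and 1264 CP20M in Epcam+ve samples and 346 and 174 in HE pools. Both HE pools lay below both Epcam+ve samples. The log2 difference was -2.19 ± 0.36 (SE, n = 2 and 2), with an adjusted p of 0.00431 by limma, which misses the threshold. On recovered reads, both edgeR's quasi-likelihood test (adjusted p = 0.00029) and DESeq2 (adjusted p = 0.000134) called it lower. *Neurog3* (chr10:62133090-62134763, plus strand) had 1 and 0 reads in Epcam+ve cells, 2 and 0 in HE pools, and 0 and 1 in KO pools. No fold can be given at these counts, since 3 reads alone would make 26.8 CP20M or more in each sorted library. The commitment factor of the lineage was thus not detectable beyond a few reads in any sorted library at this depth.

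*Neurod1*, a basic helix-loop-helix factor of endocrine maturation (chr2:79452521-79456751, minus strand), was 152 and 114 CP20M in Epcam+ve samples and 12382 and 17016 in HE pools. It ranked 58 among the 24118 genes above 0 in HE pools. Its log2 fold change was 6.68 ± 0.24 (limma, adjusted p = 4.86e-06). By summed reads, 2352 in HE pools against 28 in Epcam+ve samples, the ratio was 108.6 with a 95% exact interval of 74.9 to 163.7 that covers counting error only. *Insm1*, a zinc finger repressor shared by neuroendocrine cells (chr2:146221921-146225020, plus strand), was 54 and 31 CP20M in Epcam+ve samples and 3406 and 4948 in HE pools, with a log2 fold change of 6.33 ± 0.35 (limma, adjusted p = 2.63e-05). *Nkx2-2*, a homeobox factor needed for several EEC subtypes (chr2:147177546-147194243, minus strand), was 18 and 21 CP20M in Epcam+ve samples, 2 reads in each, and 1922 and 2254 in HE pools. Its log2 fold change of 6.15 ± 0.39 (limma, adjusted p = 4.18e-05) depends on the pseudocount at such low counts. The ratio of its summed reads was 108.6, with a counting interval of 42.0 to 400.7. *Rfx6*, a winged-helix factor of endocrine pancreas and gut (chr10:51677756-51730432, plus strand), was 90 and 31 CP20M in Epcam+ve samples and 2083 and 2934 in HE pools, with a log2 fold change of 5.28 ± 0.46 (limma, adjusted p = 0.000234).

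The paired box factors were also high in HE pools without passing the threshold in limma. *Pax4* (chr6:28442334-28449353, minus strand), known for its part in the serotonin-producing and other subtypes, was 9 and 72 CP20M in Epcam+ve samples, which is 1 and 7 reads, and 1002 and 1387 in HE pools. The log2 difference was 4.91 ± 0.67 (limma, adjusted p = 0.00206). *Pax6* (chr2:105668900-105697364, plus strand), an activator of the proglucagon gene, was 9 and 62 CP20M in Epcam+ve samples and 553 and 814 in HE pools, with a log2 difference of 4.20 ± 0.67 (limma, adjusted p = 0.00388). Their ratios of summed reads were 30.9 (counting interval 15.3 to 72.5) and 20.1 (9.44 to 51.2). Both were called higher by edgeR and by DESeq2, which called all 7 tested factors and 4.65% and 4.25% of all genes tested. *Isl1*, a LIM homeobox factor (chr13:116298281-116309689, minus strand), was 18 and 21 CP20M in Epcam+ve samples and 24 and 27 in HE pools, 2 reads in each of these 4 libraries. It was thus the single later factor without a measurable difference in either direction, at a depth where 2 reads decide its value.

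**Figure D2:**
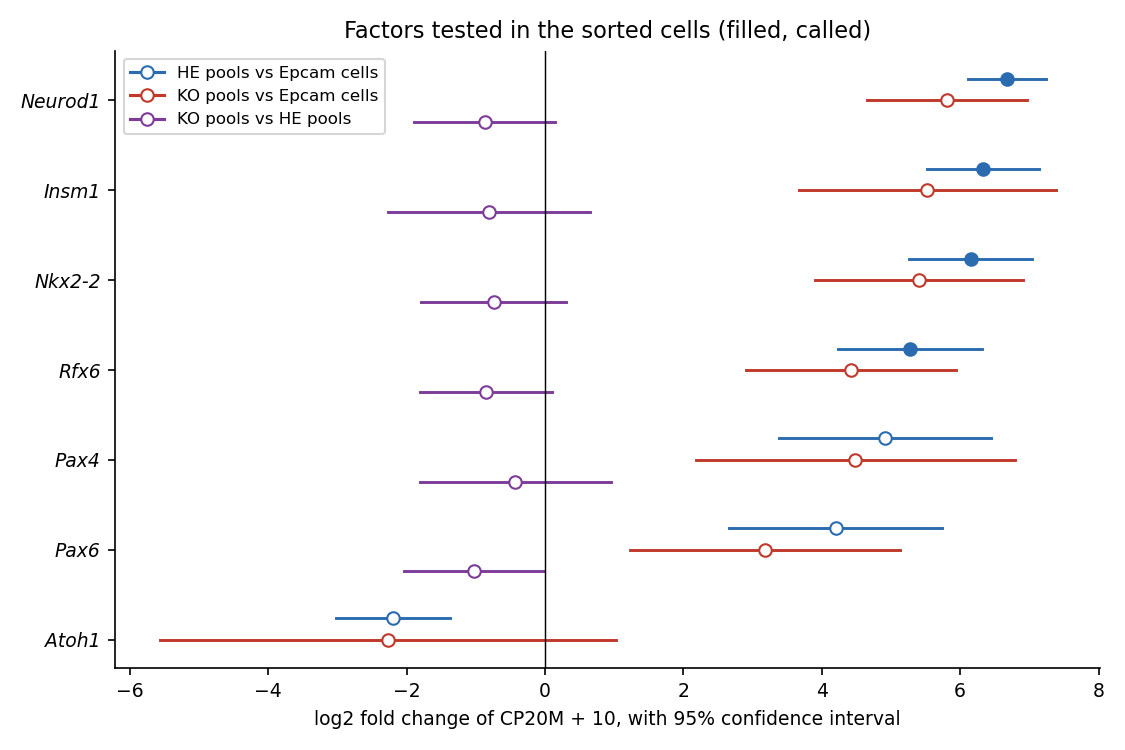
Log2 fold change of CP20M + 10 (points) with 95% confidence interval (lines) of the factors tested in the sorted cells, for HE pools against Epcam+ve cells, KO pools against Epcam+ve cells and KO against HE pools; filled points passed the thresholds. *Neurod1*, *Insm1*, *Nkx2-2* and *Rfx6* are filled for HE pools against Epcam+ve cells, and every KO against HE point lies between -1.03 and -0.43.

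Per length of exon, the order of the levels in HE pools was *Neurod1* (mean 5386 CP20M per kb), *Insm1* (1347), *Pax4* (827), *Nkx2-2* (726), *Rfx6* (626), *Atoh1* (123), *Pax6* (58.4), *Neurog3* (7.17) and *Isl1* (6.44). The neighbours *Pax4*, *Nkx2-2* and *Rfx6* did not differ beyond the spread between the pools, an SD (n = 2) of 22.8% of the mean for *Pax4* and 11.2% for *Nkx2-2*. The exons of all annotated transcripts of *Pax6* add up to 11694 bases against 1445 to 4010 for the other factors, which lowers its value per kb. Some genes overlap a factor, and whether the counting used strand is not given in the sources used here. The antisense genes *Nkx2-2os* (at most 601 CP20M in sorted cells) and *Pax6os1* (at most 47), and *Gm26755* and *Cerkl* at *Neurod1* (at most 2561 and 2779), stayed below the levels of these factors in the pools. *Fam241b*, which overlaps *Neurog3* on the other strand, reached 117 CP20M in sorted cells and 210 in crypts, above *Neurog3* itself, so that the few *Neurog3* reads are uncertain.

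The other transcription factors of EECs behaved unevenly. Of a list of 20, 15 were tested in HE pools against Epcam+ve cells and 7 were called higher. The largest of these were *Runx1t1* (log2 fold change 6.56), a corepressor of the ETO family, and *Fev* (6.29), the ETS factor of serotonin-producing cells. *Lmx1a* (5.66), a LIM homeobox factor upstream of *Tph1*, *Myt1* (5.34) and *St18* (3.90), zinc finger factors of endocrine progenitors, *Prox1* (4.51) and *Egr3* (4.39) made up the rest. The list's median was 1.90 over all 20, of which 18 were positive. Of 14 factors of other epithelial lineages, 12 were tested and none was called. Their median was -1.32, with 1 of 14 positive. Among these, *Hes1*, the Notch effector that represses *Atoh1*, was 1654 and 1839 CP20M in Epcam+ve samples and 599 and 134 in HE pools (log2 difference -2.57, limma, adjusted p = 0.0137). *Gfi1*, a repressor that favours goblet over endocrine fate, had 7 and 9 reads in Epcam+ve samples, at 63 and 93 CP20M, and 0 in both HE pools, so that its fitted difference is set by the pseudocount (limma, adjusted p = 0.0132). *Rest*, a repressor of neuronal and endocrine genes, was 1055 and 1233 CP20M in Epcam+ve samples and 484 and 94 in HE pools, a log2 difference of -2.34 (limma, adjusted p = 0.0273). None of the 3 passed the threshold of 0.001.

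Markers of other cells that a sort could hold moved as follows. Summed goblet markers were lower in HE pools (60888 to 140555 CP20M) than in Epcam+ve samples (280136 to 331133), and 1 of the 6, *Spink4*, was called lower. Among markers of enteric neurons and glia, *Sox10* and *S100b* had 0 reads in both HE pools, while *Ret* was 1462 and 1201 CP20M there and 99 and 52 in Epcam+ve samples. Of 4 leukocyte markers, *Cd3e* and *Lyz2* had 0 reads in both HE pools and the sum was 48 to 54 CP20M. The stroma markers *Col1a1*, *Col3a1* and *Pdgfra* were at 0 in HE pool 2 and at 12, 150 and 35 CP20M in HE pool 1, while *Vim* was 2682 and 3481. Of 5 colonocyte markers, *Krt20* was called higher, at 24878 and 31364 CP20M in HE pools against 4434 and 3822 in Epcam+ve samples. *Car1*, *Car4*, *Slc26a3* and *Aqp8* were lower and not called. Summed stem and cycling markers were 1616 to 6031 against 19438 to 20489 CP20M. Summed tuft markers were 139 to 162 against 1070 to 1209.

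In KO GFP+ve cells, the same 6 factors stood well above Epcam+ve cells, with more spread. This comparison uses the same Epcam+ve samples as the one before. No factor and none of the 15779 genes tested (0%) passed an adjusted p of 0.001 by limma, whereas 2925 genes had an unadjusted p under 0.05. *Neurod1* was 12615 and 4974 CP20M in KO pools 1 and 2. Its log2 difference from Epcam+ve cells was 5.81 ± 0.48 (limma, adjusted p = 0.0175). *Insm1* was 5182 and 1058 CP20M, *Nkx2-2* 2028 and 756, *Rfx6* 2028 and 918, *Pax4* 1765 and 430, and *Pax6* 301 and 349. The 6 factors stood at 44.0% to 147.8% of their HE means in KO pool 1 and 25.3% to 51.1% in KO pool 2. They stood at 0.742% to 9.07% in Epcam+ve samples. Their log2 differences were 5.52 ± 0.77 for *Insm1*, 5.41 ± 0.62 for *Nkx2-2*, 4.42 ± 0.63 for *Rfx6*, 4.48 ± 0.95 for *Pax4* and 3.18 ± 0.81 for *Pax6*, with adjusted p from 0.0292 to 0.17 (limma). DESeq2 called 5 factors, all of these except *Pax6*, and 1.51% of all genes, and edgeR called *Neurod1* alone and 0.196% of all genes. Without KO pool 2, limma called 5 factors and 11.9% of all genes, and without KO pool 1 it called 3 and 1.41%. Without either Epcam+ve sample it called 5 factors, and 1.18% and 1.03% of all genes. Where 1 library of a group is left, that library is assumed to vary like the other group. In the fits with 1 KO pool, the other group is the 2 Epcam+ve samples of 1 mouse, whose spread is technical. Those calls do not measure variation between animals. *Atoh1* was 38 CP20M in KO pool 1, a single read, and 1221 in KO pool 2, which is the level of the Epcam+ve samples. *Isl1* had 0 and 5 reads in the KO pools.

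Whether loss of *Olfr78* changes the factors within GFP+ve cells was asked by comparing KO with HE pools. The 6 factors from *Neurod1* to *Pax6* exceeded 40 CP20M in all 4 pools and were tested, and 0 were called at an adjusted p under 0.05 (limma; 0% of 11892 genes were called, 503 had an unadjusted p under 0.05, edgeR called 0 and DESeq2 8 genes, none of them a factor). The differences on the log2 scale, with 95% confidence intervals, were -0.87 (-1.89 to 0.15) for *Neurod1*, -0.81 (-2.26 to 0.65) for *Insm1*, -0.74 (-1.79 to 0.31) for *Nkx2-2*, -0.85 (-1.81 to 0.11) for *Rfx6*, -0.43 (-1.81 to 0.95) for *Pax4* and -1.03 (-2.04 to -0.02) for *Pax6*. All 6 fitted values were negative, and so was the median of all genes tested (-0.18). On recovered reads they were nearer to 0, at -0.29 (edgeR) and -0.25 (DESeq2) for *Insm1*, -0.58 and -0.57 for *Neurod1*, -0.48 and -0.44 for *Nkx2-2*, -0.66 and -0.63 for *Rfx6*, -0.89 and -0.90 for *Pax6*, and -0.07 and 0.012 for *Pax4*, whose sign thus turned with DESeq2. The median of all genes was then 0.013 with edgeR and 0.025 with DESeq2. Rescaling the libraries by the median of ratios moved the limma median to -0.05. All 6 intervals include a drop of 3-fold and 5 of them include no change, so that the size of any change is poorly known at 2 pools per group. Over all 9 factors, without a filter, the median was -0.74, beside -0.22 over all genes.

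The KO pools differed from each other. Relative to the mean of the HE pools, *Neurod1* was at 85.8% in KO pool 1 and 33.8% in KO pool 2. *Insm1* was at 124.1% and 25.3%, *Nkx2-2* at 97.1% and 36.2%, *Rfx6* at 80.8% and 36.6%, and *Pax4* at 147.8% and 36.0%. In KO pool 1 these 5 factors thus lay near or above the HE pools, and in KO pool 2 at 25.3% to 36.6% of them. *Pax6* was low in both, at 44.0% and 51.1%, the former from 8 reads. The EEC genes *Chga*, *Chgb*, *Cpe*, *Syp* and *Tph1* were at 58.7% to 75.6% in KO pool 1 and 33.2% to 39.1% in KO pool 2. *Atoh1* ran the other way, at 14.6% and 469.6%, as did goblet genes such as *Fcgbp* (19.4% and 364.4%), *Clca1* (2.36% and 500.6%) and *Muc2* (66.1% and 304.5%). Whether the goblet transcripts of KO pool 2 have a part in its low factor levels was not tested. Without KO pool 1, limma called *Neurod1* (log2 difference -1.54, adjusted p = 0.00499), *Insm1*, *Nkx2-2*, *Rfx6* and *Pax4* lower and *Atoh1* higher (log2 difference 2.27, adjusted p = 0.0228), with 2.8% of all genes called. Without KO pool 2, it called no factor and 0.781% of all genes, *Neurod1* differed by -0.20 (adjusted p = 0.778), and *Insm1* and *Pax4* had positive values of 0.34 and 0.58. Every limma call of a lower factor in KO cells therefore rested on KO pool 2. *Olfr78* differed by -2.34 on the log2 scale with both pools (limma, adjusted p = 0.401) and lay below both HE values in each of them.

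**Figure D3:**
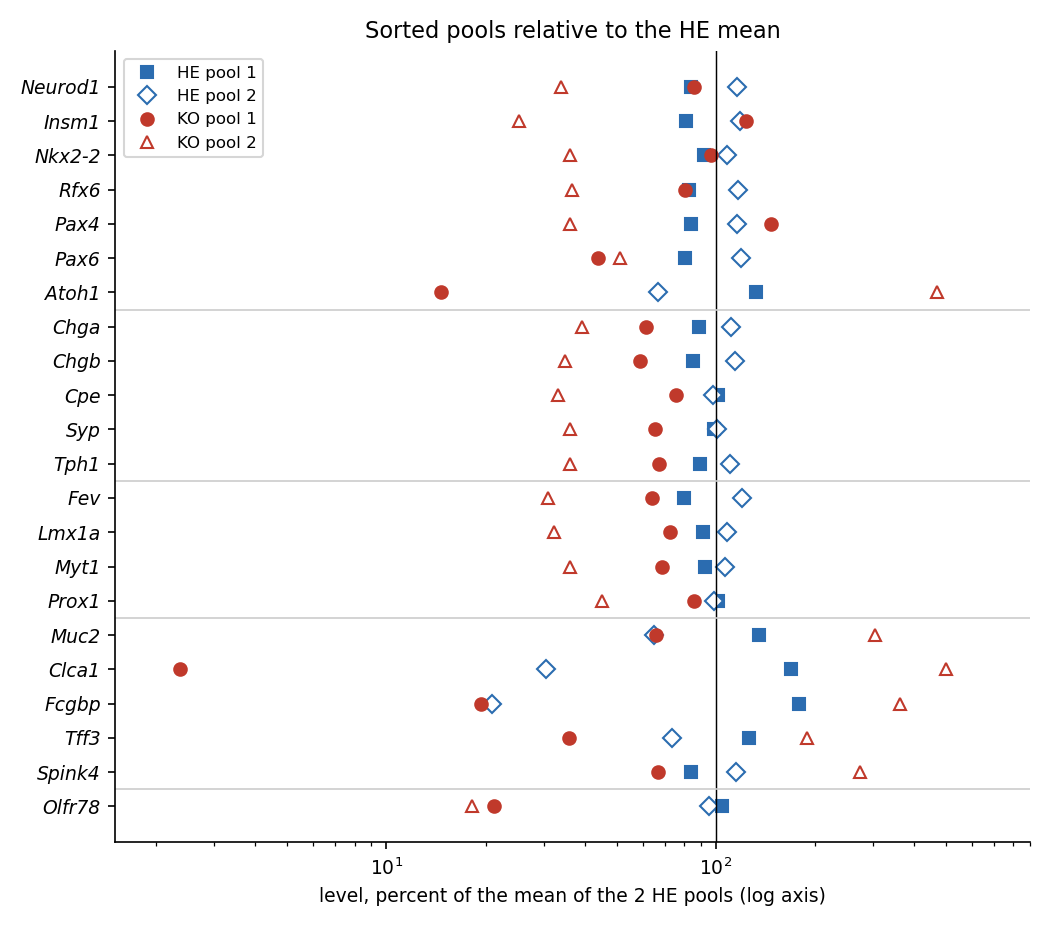
Level of each gene in the HE and KO pools as percent of the mean of both HE pools (log axis); points are pools, and grey lines part the fate factors, the EEC genes, other EEC transcription factors, goblet genes and *Olfr78*. KO pool 2 (open triangles) sits at 25.3% to 51.1% for the 6 factors from *Neurod1* to *Pax6* and at 469.6% for *Atoh1*, while KO pool 1 (filled circles) sits at 44.0% to 147.8% and 14.6%.

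By the other criterion used for these pools, a difference of means beyond 2 times the mean of the SDs with a change of the means beyond 1.5-fold, *Pax6* alone of the 6 factors was past it. Its means differed by -3.28 mean SDs and by -1.07 on the log2 scale (683.5 ± 184.6 CP20M in HE and 325.0 ± 33.9 in KO pools, SD, n = 2). This is 1 of 6 where 13.2% of all genes were past the criterion, and 9.98% in the lower direction. The other 5 reached -0.16 to -1.49 mean SDs. Both KO pools lay below both HE pools for *Pax6* and *Rfx6*, 2 of 6, as for 26.1% of all genes tested. Among the 15 other EEC transcription factors tested here, *Fev* (log2 ratio -1.07), *Lmx1a* (-0.93), *Myt1* (-0.93), *Tox3* (-0.92) and *Prox1* (-0.61) were past the criterion. The EEC genes *Chga*, *Chgb*, *Cpe*, *Syp* and *Tph1* were past it too, with log2 ratios of -1.09 to -0.88. *Pyy*, *Gcg* and *Insl5* were not.

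Set against *Chga* of the same library, all 6 factors lay nearer to their HE levels in KO pool 2 than they did in CP20M. In KO pool 1, 5 of the 6, *Pax6* excepted, lay above their HE levels and further from them. *Neurod1*, *Nkx2-2* and *Rfx6* moved there from 85.8%, 97.1% and 80.8% of the HE mean in CP20M to 140.5%, 157.6% and 132.5%. Per 1000 CP20M of *Chga*, *Neurod1* stood at 51.0 and 55.9 in HE pools, 75.1 in KO pool 1 and 46.4 in KO pool 2. *Rfx6* was 8.58 to 9.63 in HE pools and 12.1 and 8.57 in KO pools, and *Nkx2-2* 7.40 to 7.92 in HE pools and 12.1 and 7.06 in KO pools. *Insm1* was 14.0 to 16.2 in HE pools but 30.8 and 9.88 in KO pools. *Pax4* was 4.13 and 4.55 in HE pools and 10.5 and 4.01 in KO pools, so that KO pool 1 stood at 242.0% of the HE mean. *Pax6*, 2.28 to 2.67 in HE pools, had 1.79 and 3.26 in KO pools, on both sides of the HE values. *Chga* itself was lower in KO pools, at 61.4% and 39.1% of its HE mean, and past the criterion of SDs (-3.14 mean SDs). A lower *Chga* raises every ratio to it in these pools. The ratios also carry the spread of both genes and were not tested.

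In whole crypts, EECs are a small share of the cells, and the factors other than *Atoh1* were low. *Atoh1* was 1396 to 2357 CP20M over the 12 crypt libraries, with a median of 1842, and was the most abundant of the 9 per length. *Neurod1* was 120 to 290 CP20M and on average at 1.35% of its HE pool mean. *Insm1*, *Nkx2-2*, *Rfx6*, *Pax4* and *Pax6* stood at 1.63%, 2.81%, 2.50%, 1.95% and 5.16% of theirs. Other EEC genes lay on both sides of these values. *Chgb*, *Chga* and *Tph1* stood at 0.754%, 0.887% and 1.07% of their HE pool means. *Syp* and *Cpe* stood at 1.68% and 1.77%, above *Neurod1* and *Insm1*. The L cell genes *Pyy*, *Insl5* and *Gcg* lay above all these factors, at 7.33%, 12.1% and 52.1% or more in every crypt group. *Neurog3* had 5 to 28 reads in the 12 crypt libraries, at 12 to 56 CP20M. This range overlaps the 0 to 24 CP20M of the shallower sorted libraries, and the reads are uncertain beside those of *Fam241b*. *Isl1* had 8 to 21 reads, at 19 to 48 CP20M. The sorted and crypt RNA was extracted with different kits, and the crypts of the Vil1Cre/Olfr78fx line have a table of their own, so levels across them are side by side and were not tested.

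No factor was called between Olfr78-deficient and control crypts in either line. With both lines in 1 fit and the line as a covariate, 8 of the 9 factors were tested, all but *Pax4*, and 0 were called by limma (adjusted p up to 0.2, change beyond 1.5-fold), beside 0.0243% of 16447 genes. The share over all genes rested on 1 library, since without eKO mouse 1 it was 6.92%, again with 0 factors. None of the 8 had an unadjusted p under 0.05, and edgeR and DESeq2 also called 0 of them. *Atoh1* differed by 0.03 on the log2 scale (95% interval -0.26 to 0.33) and *Neurod1* by 0.10 (-0.28 to 0.48), so that for these a change beyond 1.5-fold lay outside the interval. *Pax6*, with the largest value, differed by 0.36 (-0.22 to 0.94), *Nkx2-2* by 0.30 (-0.20 to 0.80), *Rfx6* by 0.26 (-0.23 to 0.75), *Insm1* by 0.15 (-0.24 to 0.53), *Isl1* by 0.12 (-0.41 to 0.65) and *Neurog3* by 0.10 (-0.56 to 0.77). The intervals of these 6, *Insm1* excepted, still hold an increase of 1.5-fold. Without the library titled eKO mouse 2, again 0 factors were called, beside 0.196% of all genes. The median over all 9, without a filter, was 0.15, beside 0.05 over all genes.

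**Figure D4:**
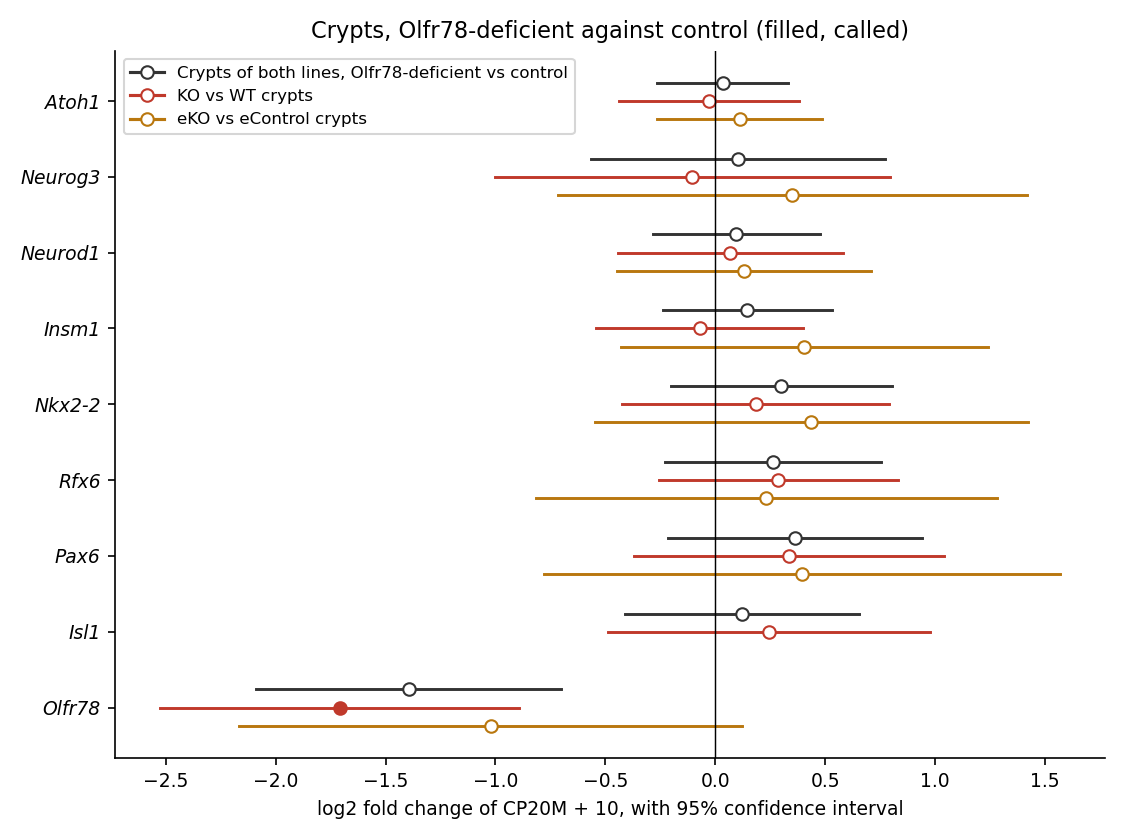
Log2 fold change of CP20M + 10 (points) with 95% confidence interval (lines) of the factors tested in crypts and of *Olfr78*, for both lines together, KO against WT and eKO against eControl; filled points passed the thresholds. All factor intervals include 0, and *Olfr78* in KO against WT crypts (-1.71) is the filled point.

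Within the Olfr78-GFP line, 8 factors were tested in KO against WT crypts and 0 were called, beside 9.48% of 15975 genes. Without WT mouse 1 or 2 the share was 6.01% or 3.43%, with 0 factors. Their median over all 9 was 0.18, beside 0.08 over all genes. *Neurod1* was 280 and 163 CP20M in WT and 168 to 290 (median 235) in KO crypts. *Insm1* was 104 and 73 in WT and 72 to 97 (median 77) in KO crypts. *Pax4*, which no test covered, was 16 in both WT crypts and 21 to 39 (median 30) in KO crypts, from 6 to 14 reads a library. It was the 1 factor of 9 whose groups did not overlap, as for 14.2% of the 44270 genes above 0 in this line. *Pax6* was 27 and 28 in WT and 19 to 53 in KO crypts, and *Rfx6* 70 and 50 in WT and 49 to 87 in KO crypts. Within the Vil1Cre/Olfr78fx line, 7 factors were tested and 0 were called, as were 0% of 15401 genes. Their median over all 9 was 0.23, beside 0.03 over all genes. *Atoh1* was 1532 to 1974 in eControl and 1794 and 1889 in eKO crypts. *Insm1* was 30 to 50 in eControl and 57 and 51 in eKO crypts, the 1 factor of 9 without overlap, as for 9.38% of the 32767 genes above 0 there. All results within this line count the library titled eKO mouse 2, with *Insm1* at 51, as eKO. Leaving it out would keep a single eKO library, so they are not given without it. A test of whether the genotype effects of the lines differ called 0 of 8 factors and 0.0304% of genes. Without the library titled eKO mouse 2 it called 26.3% of genes, without eControl mouse 1 3.76%, and with eKO mouse 2 grouped by its genotype label 32.9%, each time with 0 factors.

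In crypts, counting error was close to the whole spread for *Pax4* and below it for *Atoh1*. Over the 12 crypt libraries the coefficient of variation was 16.8% for *Atoh1*, where counting would give 3.56%, and 27.8% for *Neurod1*, where it would give 11.02%. For *Pax4* it was 30.5% with 32.6% from counting, and for *Isl1* 33.2% with 27.0%. *Neurog3*, *Pax6*, *Insm1*, *Nkx2-2* and *Rfx6* lay between 32.1% and 42.1%, with 18.9% to 26.3% from counting. The 12 libraries span both lines and their genotypes, so the spread also holds differences between these groups. For example, *Insm1* was 72 to 104 CP20M in the Olfr78-GFP line and 30 to 57 in the Vil1Cre/Olfr78fx line.

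The genes whose pattern was most like that of the 9 factors were *Cep170* (r = 0.992), *Rab39b* (0.991), *Kif5a* (0.991), *Amigo2* (0.989) and *Asic2* (0.989), by Pearson's r with the mean log2 level of the factors across the 13 libraries of the sorted cells and Olfr78-GFP crypts. *Amigo2*, which encodes an adhesion molecule, was 9 and 21 CP20M in Epcam+ve samples, 7882 and 8895 in HE pools, 5857 and 2720 in KO pools and 68 to 144 in crypts. *Cep170*, a centrosomal protein gene, was 36 and 62, 1278 and 1707, 939 and 616, and 68 to 141 in the same order. All these genes share a wide gap between the GFP+ve pools and the other libraries, and r is high for any gene with such a gap. With the 6 sorted libraries alone, 0 of these 5 genes were again among the 5 most alike. They ranked 42, 8, 7, 23 and 61 of 17142 genes there, in the order named, with r of 0.989 to 0.996. The members did not all share the pattern: with the mean of the other 8, r was 0.910 to 0.976 for *Neurod1*, *Insm1*, *Nkx2-2*, *Rfx6*, *Pax4* and *Pax6*, and -0.789 for *Atoh1*, -0.391 for *Neurog3* and -0.223 for *Isl1*.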

How the data were processed

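RNA was measured in 18 libraries, grouped by their titles. Per the methods, the authors aligned reads with STAR (GRCm38) and made gene counts with HTSeq; versions are not given in the sources used here. For sorted cells the deposited values are a signal, and for crypts a score, both the authors' reads per gene scaled to 20000000 per library and rounded up (CP20M). Dividing by the value of 1 read gave whole reads for 99.64% to 99.98% of values, counted where a whole number of reads times that value, rounded up, equalled the deposited value exactly; with 1 read worth so little in crypts, many whole numbers meet this there by chance. The Epcam+ve samples come from 1 mouse, so their spread is technical.

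The main test was limma 3.58.1 with a trend on log2(CP20M + 10), which understates folds of low genes, with Benjamini-Hochberg adjustment over all genes past 40 CP20M (2 CPM) in 2 of the libraries compared, or above 40 in all 4 pools for KO against HE. The design assumed scaled values; edgeR 4.0.16 and DESeq2 1.42.0 on recovered reads were alternatives, with other pseudocounts, filters, scaling and left-out libraries. Scripts were tested on simulated data. Members, lists and thresholds were chosen with earlier results of these data known. Named are the 9 factors, *Olfr78*, the 5 genes most alike, and of each list the genes past a threshold or up to 4 with the largest change; *Col1a1* and other marker genes beyond this rule were named after their values were seen. Some marker genes of enteric neurons and glia, and the sum of that list, are not reported here. Same-numbered libraries are different animals. Their deviations from the group means correlated at 0.589 and 0.363 in eKO against eControl crypts, and at -0.162 to 0.061 in the other comparisons of 2 groups. Sequences are from RefSeq GRCm38.p6. Annotation was GENCODE M21.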

Additional observations from a re-analysis of the deposited data

Results flagged for a closer look

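*Rfx6* in KO crypt mouse 2 was 49 CP20M, 15 reads, where the other 4 KO crypt libraries were 79 to 87. The gap made up 0.789 of the group's range, above the 0.71 that Dixon's test allows for 5 libraries. Of 10 genes looked at in this group, *Rfx6* alone stood out. Chance flags about 1 in 20 genes, so that 1 among 10 is close to what chance gives.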

How the results depend on the processing

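For HE pools against Epcam+ve cells, 4 factors were called; edgeR and DESeq2 on recovered reads called 7, no trend of the spread called 0, and leaving out a library gave 5 to 6. For KO pools against Epcam+ve cells, 0 were called; DESeq2 called 5, the library number as a replicate block 5, edgeR, no filter and all 6 sorted libraries in 1 fit 1 each, and leaving out a library 3 to 5. For KO against HE pools 0 were called, and 0 to 6 when a library was left out, 6 without KO pool 1. With the criterion of SDs, 1 factor was past it and 2 with the population SD; leaving out a pool gives no SD. A fit with HE and KO pool numbers crossed, chosen after seeing the data since same-numbered pools correlated at -0.16, called 0 factors, and 29 genes higher and 56 lower. Numbers pair no animals elsewhere either, and the replicate block called 6 factors for HE pools against Epcam+ve cells and 0 in KO against HE pools and in crypts. Signs turned for *Pax4* in KO against HE pools (0.012 with DESeq2, 0.041 for the log2 ratio after rescaling) and, in crypts of both lines, for *Atoh1* (-0.012 after rescaling, -0.0064 by the genotype label of eKO mouse 2). With 1 library left out, the log2 difference ranged from -4.61 to 0.074 for *Atoh1* in KO pools against Epcam+ve cells, from -1.95 to 0.34 for *Insm1* and -1.43 to 0.58 for *Pax4* in KO against HE pools, and in crypts from -0.011 to 0.12 for *Atoh1*, -0.022 to 0.32 for *Neurog3*, -0.049 to 0.26 for *Neurod1* and -0.11 to 0.28 for *Isl1*. As percent of the HE mean, rescaling moved *Insm1* in KO crypts to 1.63, *Pax4* and *Pax6* in WT crypts to 1.12 and 3.35, and *Chgb* in Epcam+ve cells to 1.39. Of the 5 genes most like the factors, 0 were among the 5 most alike in the sorted libraries alone, where they ranked 7 to 61. Over all genes, limma called 4 in crypts of both lines but 1134 without eKO mouse 1, and 5 for the difference between the lines but 4296 without eKO mouse 2, 616 without eControl mouse 1 and 5407 by the genotype label. For KO pools against Epcam+ve cells, 164 genes were called higher and 30 lower with the replicate block. No filter gave 14 and 1, and all 6 sorted libraries in 1 fit gave 32 and 1. For HE pools against Epcam+ve cells, the replicate block gave 406 higher and 117 lower, and no trend of the spread gave 0 in either direction. The cause of these moves was not tested. Depth limits *Neurog3* and *Isl1*, at 5 reads or fewer in every sorted library.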

Other observations

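Among transcription factors of other lineages, *Gfi1* was called higher in KO than in WT crypts (log2 fold change 0.69 ± 0.24, limma, adjusted p = 0.101), and not in eKO against eControl crypts (-0.20, adjusted p = 1). The difference between the lines was -0.89 (adjusted p = 0.557). In the same KO against WT comparison, the EEC genes *Chgb* (-0.61, adjusted p = 0.124) and *Cpe* (-0.59, adjusted p = 0.194) were called lower, and so was the stem cell marker *Lgr5* (-0.76, adjusted p = 0.0195). The leukocyte genes *Lyz2* (-1.34, adjusted p = 0.0701) and *Ptprc* (-0.66, adjusted p = 0.14) were called lower with them. Of all 15975 genes tested in KO against WT crypts, 9.48% were called. *Gfi1* was 1 of 14 factors of other lineages tested there, and *Chgb* and *Cpe* were 2 of 7 EEC markers. *Lgr5* was 1 of 3 stem and cycling markers, and *Lyz2* and *Ptprc* were 2 of 3 leukocyte markers.

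The L cell genes did not follow the fate factors among the pools. *Pyy* was 5017 and 681 CP20M in HE pools 1 and 2 and 2516 and 2568 in KO pools, and *Insl5* was 1899 and 441 in HE pools and 564 and 1139 in KO pools. *Gcg* was 1600 and 401 in HE pools and 639 and 1767 in KO pools. HE pool 1, with the higher *Pyy*, *Insl5* and *Gcg* of the HE pools, had the lower *Neurod1*, *Insm1*, *Pax4* and *Pax6* of the pair.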
